A study of Homo sapiens with 9 samples.

Results

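The genes described here are solute carriers, taken as every gene of the array table whose symbol reads SLC, a family number, the letter A and a member number. Rows with exactly 1 gene symbol were used, and 17 of 14812 such genes met the rule, each with a single row. They are mostly carriers that received an SLC symbol recently and were long known as MFSD, PQLC or TMEM genes. Another 39 carriers with textbook roles, such as those of glucose, glutamine and lactate, are not analysed here. The arrays came from WM266-4 cells, an established human line from a melanoma metastasis, here carrying GFP. Cells received small RNAs by lipofection and RNA was taken 48 h later. There were 3 groups of 3 biological replicates: a control microRNA at 0.5 nM, a mimic of miR-199a-3p at 0.5 nM, and the same mimic at 0.25 nM. No control at 0.25 nM was among the samples, so both doses were set against the same control arrays, and for the lower dose the amount of small RNA and the mimic changed together.

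Solute carriers are membrane proteins that move ions, sugars, amino acids, nucleotides, vitamins and metals across the plasma membrane and the membranes of organelles. Families are numbered by sequence similarity, and many belong to the major facilitator superfamily, whose members change shape to expose a substrate site to one side of the membrane and then the other. A microRNA mimic is a short duplex whose guide strand enters Argonaute and lowers transcripts that pair with its seed, the bases near its 5′ end.

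The mature RNA named on the labels is shown with its sister arm, because the seed decides which transcripts can pair with it. Sequences are those of RefSeq (GRCh38.p14), 5′ to 3′, and capitals mark the seed, bases 2 to 8.
hsa-miR-199a-3p: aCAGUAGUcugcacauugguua
hsa-miR-199a-5p: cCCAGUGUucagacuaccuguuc
The 3p arm is 22 bases long and is encoded on the minus strand at chr19:10817429-10817450 (MIR199A1) and chr1:172144554-172144575 (MIR199A2). The 3p arm of MIR199B has the same 22 bases. The 5p arm, 23 bases long, has another seed. Whether a transcript of any solute carrier holds a match to the seed was not examined.

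Values below are log2 intensities after each array was shifted to the same median, and a difference of 1 is a factor of 2. In the control the 17 genes ranged from 10.88 (SLC71A2) to 5.43 (SLC25A2), with a median of 7.78 against 6.26 over all genes. A mean of 7 or more was reached by 13 of them and by 38% of all genes. Just inside this limit were SLC68A1 at 7.03 and SLC66A2 at 7.28, and just outside were SLC67A2 at 6.69 and SLC49A3 at 6.21. Melanocytic genes marked the cells as labelled: 9 of 10 measured lay at 7 or more in the control, with TYR at 12.74, PMEL at 12.19 and SOX10 at 9.51. None of 5 epithelial, 2 fibroblast, 1 leukocyte and 1 endothelial markers measured did. The lists held 6, 6, 4 and 3 of these, so most fibroblast, leukocyte and endothelial markers were not among the genes used.

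Many values were exactly equal on all 3 arrays of a group before the shift: 47.2% of genes in the control, 46.6% at 0.5 nM and 40.6% at 0.25 nM. Among the solute carriers this held for 7, 5 and 7 genes, and for SLC49A3 and SLC60A1 in every group. Deposited values that were later left out at 0.25 nM are included in these counts. A test that takes its error from the arrays within groups, called array-level here, therefore has errors and p-values that are too small. A second test, called group-level, treated each group as 1 unit, and set the control against both doses together. Its error for a gene is drawn from the difference between doses and, for the most part, from that of other genes of similar level. Both used limma. P-values were adjusted over 14812 genes by the Benjamini-Hochberg method and called under 0.05. The verbs rose and fell are used below for genes past the group-level test.

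Taking both doses against control, SLC49A4 fell, and it was the only one of the 17 genes to pass the group-level test. The share of all genes called was 0.128%, with 0.101% lower and 0.027% higher. At an unadjusted p under 0.05, 2 of the 17 passed, SLC49A4 and SLC33A2, both lower. The share of all genes at this threshold was not counted, and SLC33A2 ranked 756 by p among 14812 genes. The median of the 17 changes was -0.05, with 11 lower and 6 higher, against -0.01 over all genes, of which 51.6% were lower. For the 13 genes at 7 or more the median was also -0.05, with 9 lower, against -0.03 and 59.4% lower over all genes of that level. This split depended on the scaling of the arrays. Without the shift, which moved the median of all genes to 0.11, 14 of the 17 were higher and their median was 0.07, below that of all genes. With quantile normalization 9 were lower, with a median of -0.02.

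**Figure D1:**
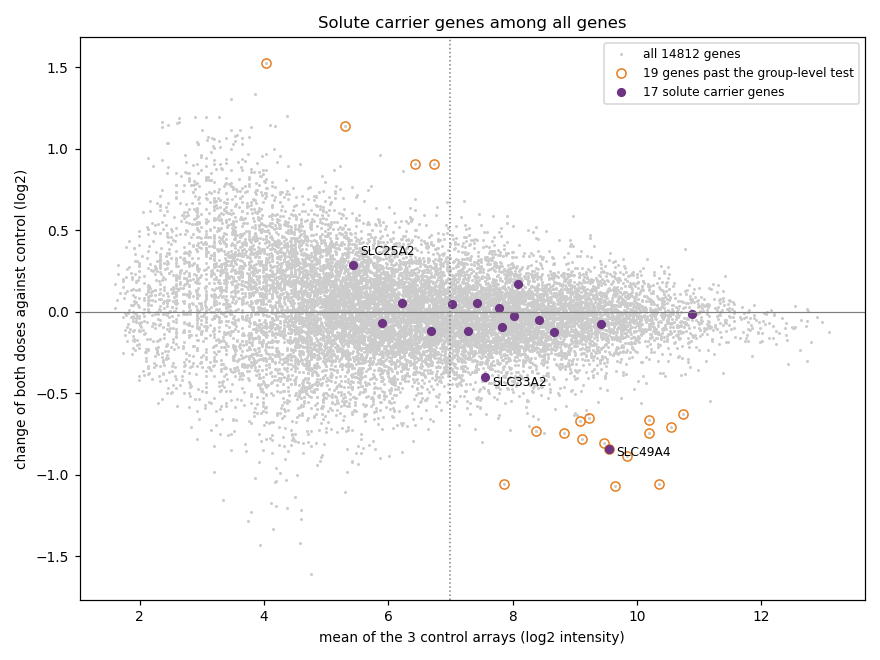
Mean log2 intensity in the control arrays (horizontal axis) against the log2 change of both doses from control (vertical axis) for 14812 genes in grey, the 19 genes past the group-level test ringed in orange, and the 17 solute carriers in purple; the dotted line stands at 7. SLC49A4, at a level of 9.55 and a change of -0.84, is the one solute carrier with a ring, and the other 16 lie between -0.40 and 0.28.

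SLC49A4 (gene ID 84925, earlier DIRC2) encodes a transporter of the lysosomal membrane and was the second brightest of the 17 genes. It read 9.52, 9.57 and 9.57 on the control arrays, 8.92, 8.97 and 8.78 at 0.5 nM, and 8.54, 8.52 and 8.52 at 0.25 nM. The groups did not overlap: every mimic array lay below every control array, and every array of the lower dose lay below those of the higher dose. Group means were 9.55 ± 0.031 (SD, n = 3), 8.89 ± 0.094 (n = 3) and 8.52 ± 0.0097 (n = 3). These are 0.632 of the control intensity at 0.5 nM and 0.491 at 0.25 nM, or changes of -0.66 and -1.03. As deposited the 3 values at 0.25 nM tied exactly, and so did control replicates 2 and 3. The SD of 0.0097 was thus made by the shift alone and says little about variation between replicates. Over both doses the change was -0.84 ± 0.14 (SE; limma adjusted p = 0.00341), the fourth smallest p of all genes tested. The difference between doses, 0.37 higher at 0.5 nM, passed at array level (limma adjusted p = 0.000224). In bulk RNA, fewer cells of a kind and less RNA per cell cannot be told apart.

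The direction of SLC49A4 held in all 16 alternative settings of the group-level test, from -0.87 to -0.72, and the call in 10 of them. The call was lost without the shift (limma adjusted p = 0.561), with quantile normalization (limma adjusted p = 0.298) and without the intensity trend (limma adjusted p = 0.836), and also without 0.25 nM replicate 1 (limma adjusted p = 0.396), without 0.25 nM replicate 3 (limma adjusted p = 0.150) and without replicate 1 of every group (limma adjusted p = 0.0677). At array level, where errors are too small, it passed at each dose in all 17 alternatives. The changes were -0.70 to -0.57 at 0.5 nM and -1.05 to -0.87 at 0.25 nM. FLVCR1, a haem and choline transporter of the same SLC49 family under another symbol, had group means of 8.09 in control, 7.70 at 0.5 nM and 7.67 at 0.25 nM. It did not pass at group level (limma adjusted p = 0.584). At array level it passed as lower at both doses (limma adjusted p = 8.9e-05 and 5.91e-05), as 30.1% and 33.9% of all genes did. SLC49A3, the other member of that family with an SLC symbol here, is described with the dim genes.

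**Figure D2:**
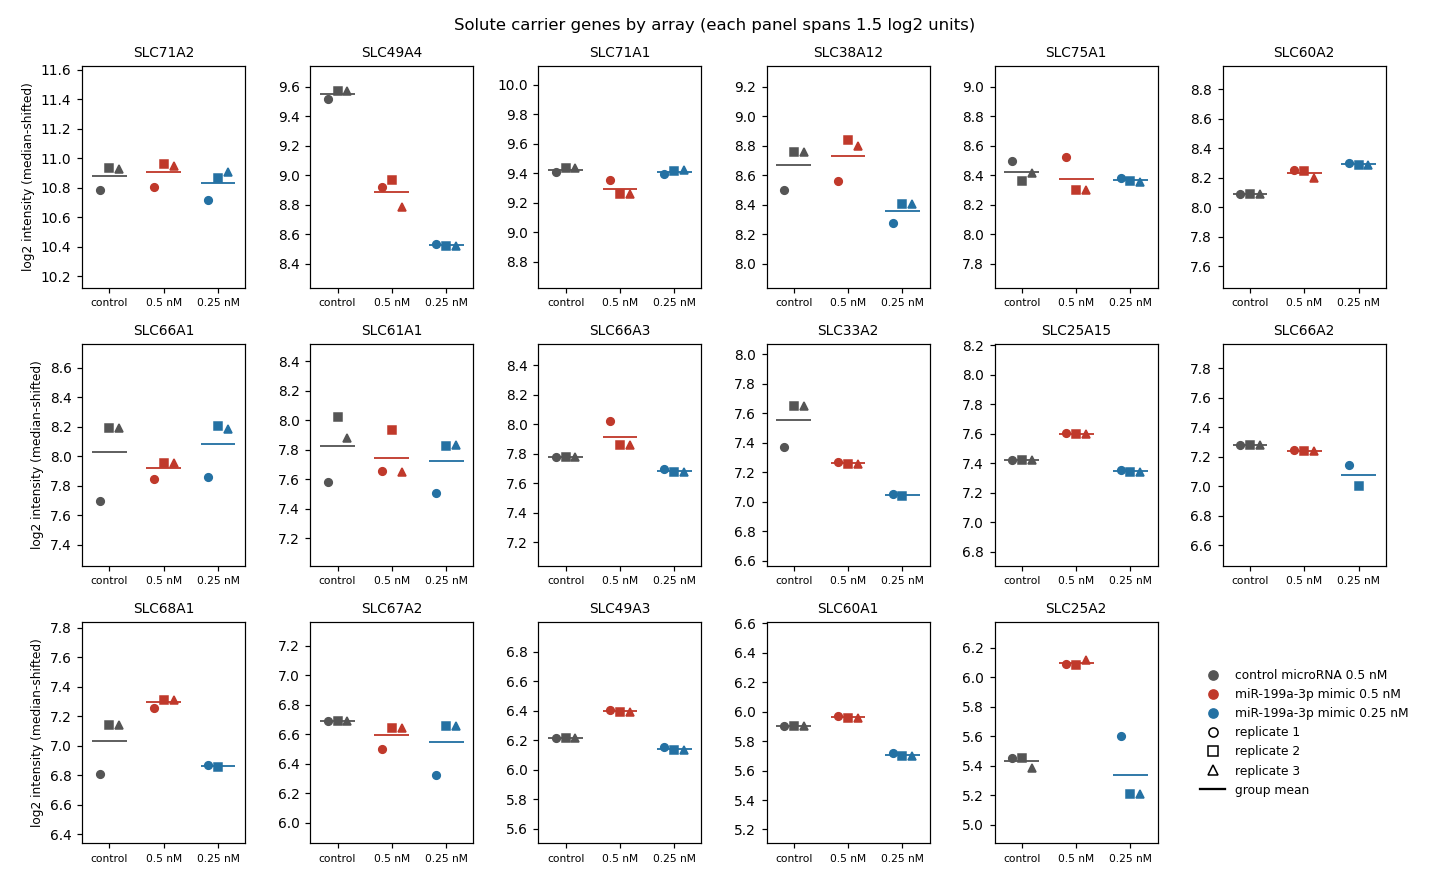
Log2 intensity after the median shift on each of the 9 arrays for the 17 solute carriers, 1 panel per gene and each panel spanning 1.5 units; grey is control, red 0.5 nM, blue 0.25 nM, circles, squares and triangles are replicates 1, 2 and 3, and bars are group means. SLC49A4 steps down from 9.55 to 8.89 and 8.52, while SLC71A2 stays between 10.72 and 10.96 on every array.

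Among the PQ-loop carriers of family 66, SLC66A1 (PQLC2), which exports cationic amino acids from lysosomes, spread as widely within groups as between them. It read 7.69, 8.19 and 8.19 in control, 7.85, 7.95 and 7.95 at 0.5 nM, and 7.86, 8.21 and 8.18 at 0.25 nM. All groups overlapped and replicate 1 was the lowest of each, and neither dose passed at array level (limma adjusted p = 0.575 and 0.763). Its change at 0.5 nM was -0.11 and ran from -0.27 to -0.03 with 1 array left out, and without replicate 1 of every group it passed, at -0.24 (limma adjusted p = 0.000105). Its relative SLC66A2 (PQLC1) read 7.28 on all 3 control arrays, 7.25, 7.24 and 7.24 at 0.5 nM, and 7.146 and 7.004 on the 2 arrays with a usable value at 0.25 nM. Mimic arrays were all below control, by 0.04 and 0.20 on average, and at array level the lower dose passed (limma adjusted p = 0.00405) and the higher did not (limma adjusted p = 0.411). The lower dose did not pass without the shift (-0.05, limma adjusted p = 0.267) or with the short value of replicate 3 kept (-0.04, limma adjusted p = 0.773), and without 0.25 nM replicate 2 it passed at -0.13. The higher dose passed as lower without 0.25 nM replicate 1 or 2 (limma adjusted p = 0.00405 and 0.0107) and without replicate 1 of every group (limma adjusted p = 0.000532), but lay above control without the shift, by 0.05 (limma adjusted p = 0.183). SLC66A3 (PQLC3) read 7.78 on all control arrays, 8.02, 7.86 and 7.86 at 0.5 nM, and 7.70, 7.68 and 7.68 at 0.25 nM. It thus lay above control at the higher dose (0.13, limma adjusted p = 0.0232) and below it at the lower (-0.09, limma adjusted p = 0.0851). Without any 1 control array the higher dose no longer passed (limma adjusted p = 0.0541 to 0.0586), and without 0.5 nM replicate 1 the higher dose lay at 0.08 and the lower dose passed (limma adjusted p = 8.00e-05). Without the shift the lower dose lay above control too, by 0.06 (limma adjusted p = 0.194). None of these genes passed the group-level test (limma adjusted p = 0.994 for SLC66A1, 0.978 for SLC66A2 and 0.995 for SLC66A3).

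SLC38A12 (TMEM104) is numbered with the SLC38 family, known for sodium-coupled transport of neutral amino acids such as glutamine. It read 8.50, 8.76 and 8.76 in control, 8.56, 8.84 and 8.80 at 0.5 nM, and 8.27, 8.40 and 8.40 at 0.25 nM. The lower dose lay below every control array and the higher dose overlapped the control. Its change of -0.31 ± 0.098 (SE) at 0.25 nM passed at array level (limma adjusted p = 0.0258), as did the difference of 0.37 between doses (limma adjusted p = 0.0125). Without the shift the change at 0.25 nM was -0.16 and did not pass (limma adjusted p = 0.232), nor did it without control replicate 2 or 3 or 0.25 nM replicate 1 (limma adjusted p = 0.0821, 0.0810 and 0.0819). Over both doses the change was -0.13 ± 0.15 (SE; limma adjusted p = 0.967).

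SLC25A15 (ORNT1) is the ornithine carrier of the inner mitochondrial membrane, which links the cytosolic and mitochondrial steps of the urea cycle. It read 7.42 on each control array, 7.61, 7.60 and 7.60 at 0.5 nM, and 7.36, 7.34 and 7.34 at 0.25 nM. The doses lay on opposite sides of the control with no overlap. Changes of 0.18 and -0.08 both passed at array level (limma adjusted p = 7.24e-07 and 9.60e-05), where the spread within groups was at most 0.0076 (SD). As deposited the values tied exactly in control and at 0.5 nM. The SD of 0.0063 at 0.5 nM was thus made by the shift alone, and these p-values say little about variation between replicates. Without the shift the lower dose lay above control too, by 0.08 (limma adjusted p = 1.66e-09), so its side depends on how arrays were scaled, and with quantile normalization it did not pass (-0.05, limma adjusted p = 0.0883). The group-level change was 0.05 ± 0.18 (SE; limma adjusted p = 0.993).

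SLC33A2 (MFSD3) is numbered beside SLC33A1, the acetyl-CoA transporter of the endoplasmic reticulum. Over both doses together it had the largest change after SLC49A4. Its arrays read 7.37, 7.65 and 7.65 in control, 7.27, 7.26 and 7.26 at 0.5 nM, and 7.05 and 7.04 at 0.25 nM, where replicate 3 had no usable value. All 5 mimic arrays lay below the lowest control array, and the lower dose lay furthest down. The changes were -0.29 at 0.5 nM and -0.51 at 0.25 nM (limma adjusted p = 0.0160 and 0.00233 at array level). Over both doses the change of -0.40 ± 0.18 (SE) did not pass (limma adjusted p = 0.669, unadjusted p = 0.0341). Control replicate 1 lay 0.28 below the other controls, and without it the change over both doses was -0.49. The call at 0.5 nM was lost without the shift (limma adjusted p = 0.0721) and without control replicate 2 or 3 (limma adjusted p = 0.0508 and 0.0501).

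The remaining bright genes belong to the major facilitator superfamily. SLC71A2 (MFSD14B), the brightest of all 17, read 10.79, 10.93 and 10.93 in control, 10.81, 10.96 and 10.95 at 0.5 nM, and 10.72, 10.87 and 10.91 at 0.25 nM. Every group overlapped the others, and the change over both doses was -0.01 ± 0.12 (SE; limma adjusted p = 0.995). With the replicate number as a block its change of -0.05 at 0.25 nM passed at array level (limma adjusted p = 0.0280 with the block and 0.554 without), as did its difference of 0.07 between doses (limma adjusted p = 0.00787 with the block and 0.395 without). Its close relative SLC71A1 (MFSD14A) read 9.41, 9.43 and 9.43 in control, 9.36, 9.26 and 9.26 at 0.5 nM, and 9.40, 9.42 and 9.42 at 0.25 nM. The higher dose lay below every control array, by 0.13 on average (limma adjusted p = 0.00375 at array level; 0.190 without the shift), and the lower dose overlapped the control. Without the shift the lower dose lay above control, by 0.14 (limma adjusted p = 0.00267). Over both doses its change was -0.07 ± 0.13 (SE; limma adjusted p = 0.979).

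SLC60A2 (MFSD4B, also NaGLT1), described as a sodium-dependent glucose transporter, was the only one of the 17 with every mimic array above every control array after the shift. It read 8.09 on all 3 control arrays, 8.26, 8.25 and 8.20 at 0.5 nM, and 8.30, 8.29 and 8.29 at 0.25 nM. The changes of 0.14 and 0.20 kept their sign in all alternatives run and passed at array level (limma adjusted p = 0.000106 and 1.40e-05). As deposited the values tied exactly in control and at 0.25 nM, so these p-values say little about variation between replicates. At group level the change of 0.17 ± 0.15 (SE), a factor of 1.13, did not pass (limma adjusted p = 0.956).

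SLC61A1 (MFSD5), described as a molybdate transporter, read 7.58, 8.02 and 7.88 in control, 7.65, 7.93 and 7.65 at 0.5 nM, and 7.51, 7.82 and 7.83 at 0.25 nM. SLC75A1 (MFSD10) read 8.49, 8.36 and 8.42 in control, 8.52, 8.30 and 8.30 at 0.5 nM, and 8.38, 8.36 and 8.36 at 0.25 nM. For both genes the groups overlapped and no comparison passed either test, except that SLC75A1 passed as lower at 0.5 nM without replicate 1 of that group, at -0.12 (limma adjusted p = 0.0263), and without replicate 1 of every group, at -0.09 (limma adjusted p = 0.0299). SLC68A1 (MFSD13A), the dimmest gene at 7 or more, read 6.81, 7.14 and 7.14 in control, 7.25, 7.31 and 7.31 at 0.5 nM, and 6.87 and 6.85 at 0.25 nM. Its replicate 3 at 0.25 nM was left out, though the deposited value of 6.934 equalled those of replicates 1 and 2. The higher dose lay above all controls, by 0.26, and its call at array level had a limma adjusted p = 0.0482, which became 0.0545 and was lost with the replicate block. It was lost as well without any 1 array of 0.5 nM (limma adjusted p = 0.0844 to 0.116) and without 0.25 nM replicate 1 or 2 (limma adjusted p = 0.0773 and 0.0771). Control replicate 1 lay 0.33 below the other controls, and without it the changes were 0.15 at 0.5 nM and -0.28 at 0.25 nM, where the lower dose then passed (limma adjusted p = 0.000263).

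**Figure D3:**
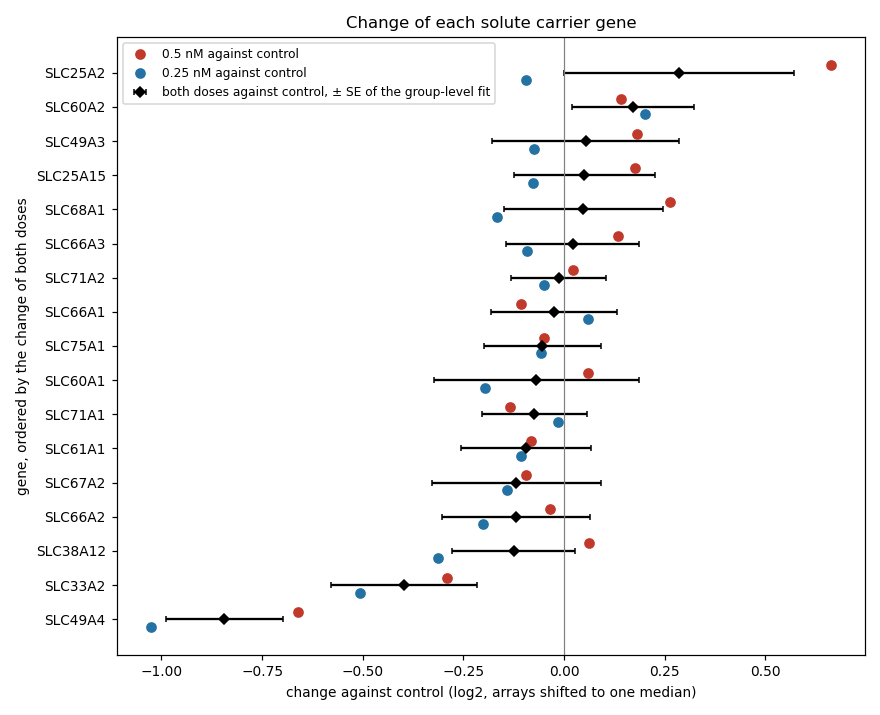
Log2 change from control for each of the 17 solute carriers, with 0.5 nM in red, 0.25 nM in blue, and the change of both doses as a black diamond with its SE from the group-level test. SLC49A4 at -0.84 stands apart, SLC33A2 follows at -0.40, and the doses fall on opposite sides of 0 for genes such as SLC25A15 (0.18 and -0.08).

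The 4 dim genes lay under a control mean of 7, and none passed the group-level test (limma adjusted p = 0.964 to 0.993). SLC25A2 (ORNT2), a mitochondrial carrier of ornithine and other basic amino acids closely related to SLC25A15, read 5.45, 5.45 and 5.39 in control, 6.09, 6.08 and 6.11 at 0.5 nM, and 5.60, 5.21 and 5.21 at 0.25 nM. The 0.5 nM arrays lay above all others, by 0.66 ± 0.10 (SE) against control (limma adjusted p = 0.000795 at array level) and by 0.76 against the lower dose (limma adjusted p = 0.000389), while the lower dose overlapped the control. Without replicate 1 of the lower dose, which lay 0.39 above its other arrays, that dose passed as lower, at -0.22 (limma adjusted p = 0.000269). Because the doses differed this much, the change over both was 0.28 ± 0.29 (SE).

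SLC49A3 (MFSD7) read 6.21 on each control array, 6.40, 6.39 and 6.39 at 0.5 nM, and 6.15, 6.13 and 6.13 at 0.25 nM. SLC60A1 (MFSD4A) read 5.90 on each control array, 5.97, 5.96 and 5.96 at 0.5 nM, and 5.72, 5.70 and 5.70 at 0.25 nM. In both the higher dose lay above and the lower dose below the control, and all 4 changes passed at array level on values that tied exactly within every group as deposited. Without the shift SLC49A3 lay above control at 0.25 nM as well, by 0.08 (limma adjusted p = 8.41e-11), while SLC60A1 kept its side at -0.04. With quantile normalization SLC60A1 no longer passed at 0.5 nM (limma adjusted p = 0.0801). SLC67A2 (MFSD9) read 6.69 on each control array, 6.501, 6.64 and 6.64 at 0.5 nM, and 6.33, 6.66 and 6.66 at 0.25 nM. Its mimic arrays were all below control after the shift, while without it 4 of 6 lay above, and neither dose passed at array level (limma adjusted p = 0.402 and 0.208). Without replicate 1 of every group both passed as lower, at -0.05 and -0.03 (limma adjusted p = 1.59e-05 and 5.08e-05). Replicates 2 and 3 tied exactly in every group as deposited, so no spread of this gene beyond that of the shift was left. As deposited they read 6.61 in control, 6.65 at 0.5 nM and 6.74 at 0.25 nM, so the lower side was also set by the shift.

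Counted by the array-level test, 10 of the 17 passed at 0.5 nM, 7 higher and 3 lower, where 63.3% of all genes passed, 33.2% higher and 30.1% lower. At 0.25 nM 8 passed, 1 higher and 7 lower, where 64.2% of all genes passed, 30.3% higher and 33.9% lower. Between the doses 11 differed, 9 of them higher at 0.5 nM and 2 lower, where 62.2% of all genes differed, 35% higher and 27.2% lower. The solute carriers' shares were thus 58.8% at 0.5 nM, 47.1% at 0.25 nM and 64.7% between doses: below the share of all genes at each dose and slightly above it between doses. A single gene of the 17 is 5.88%, so at 0.5 nM and between doses the distance from all genes is less than 1 gene. With the replicate block 9, 9 and 12 of the 17 passed, where 65.7%, 67.4% and 65.4% of all genes did. Without the shift the calls were 7 higher and 1 lower at 0.5 nM, where 45% of all genes were called higher and 20.1% lower, and 4 higher and 3 lower at 0.25 nM, where 50.7% and 17.1% were. With quantile normalization they were 6 higher and 3 lower at 0.5 nM (30.7% and 30.3% of all genes), and 1 higher and 6 lower at 0.25 nM (31.1% and 30.3%). By position alone after the shift, SLC60A2 had all mimic arrays of both doses above the control (22.6% of all genes), and SLC33A2, SLC49A4, SLC66A2 and SLC67A2 had all of them below (22.5%). SLC25A15, SLC49A3, SLC60A1 and SLC66A3 had the doses on opposite sides of the control (16.8% of all genes). Without the shift 4 genes, SLC25A15, SLC49A3, SLC60A2 and SLC66A3, lay above at both doses (39% of all genes), 2, SLC33A2 and SLC49A4, lay below (10.8%), and 1, SLC60A1, had the doses on opposite sides (16.1%). In 10 of the 17 every array of 0.5 nM lay above every array of 0.25 nM (40.6% of all genes), and in SLC60A2 and SLC71A1, 2 of the 17, below (31.6%). The 2 comparisons share their control arrays, so likeness between doses was not measured.

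Replicate 1 stood apart in some genes. It lay more than 0.05 below both other replicates in every group for SLC38A12, SLC66A1 and SLC71A2, 3 of the 17, where 5.69% of all genes did so, and above them in every group for none of the 17 (2.51%). SLC66A1 had the widest gap, -0.50 in control, -0.10 at 0.5 nM and -0.34 at 0.25 nM. SLC61A1 was low in replicate 1 in control and at 0.25 nM, by 0.37 and 0.32. Leaving out replicate 1 of every group was an alternative chosen after seeing the data. It left the group-level limma test with none of the 17 called. At an unadjusted p under 0.05 it left 2, and the share of all genes was not counted. At array level it raised the count at 0.5 nM from 10 to 15, that at 0.25 nM from 8 to 13 and that between doses from 11 to 15, while the shares of all genes became 71.6%, 71.6% and 70%. The calls gained were SLC38A12, SLC66A1, SLC66A2, SLC67A2 and SLC75A1 at 0.5 nM, and SLC25A2, SLC66A3, SLC67A2, SLC68A1 and SLC71A1 at 0.25 nM. In each of the genes with a gained call, replicates 2 and 3 tied exactly as deposited in 1 group or more. No spread beyond that of the shift was left there, so the gained calls say little about variation between replicates. The part of replicate 1 in these results was not tested further.

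**Figure D4:**
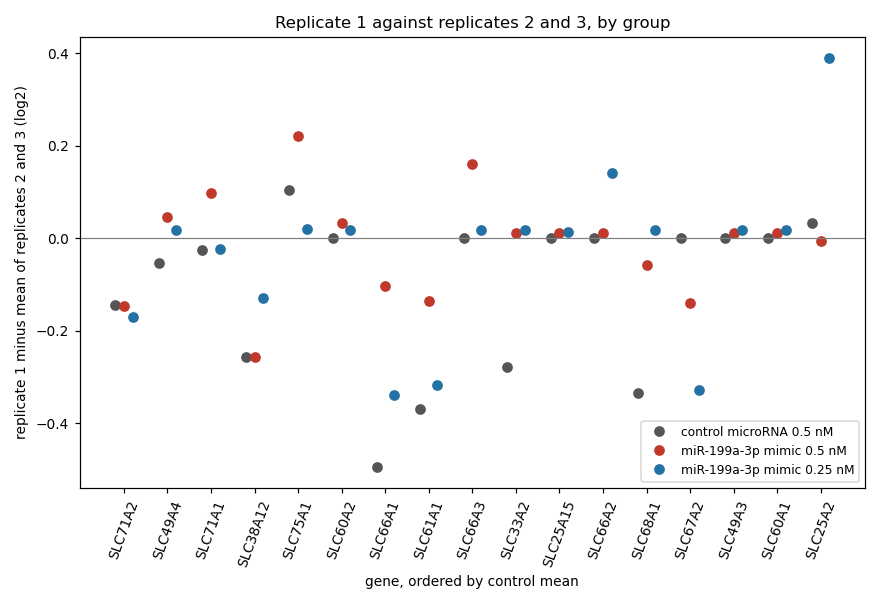
Replicate 1 minus the mean of replicates 2 and 3, in log2 units, for each of the 17 solute carriers in the control (grey), 0.5 nM (red) and 0.25 nM (blue) groups. SLC66A1 lies below 0 in all 3 groups (-0.50, -0.10 and -0.34), while genes with tied values such as SLC60A1 lie near 0.

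Carriers listed under other symbols and the partners of carriers were examined beside the 17. Of 19 measured carriers with other symbols none passed the group-level test. At array level 2 were higher and 9 lower at 0.5 nM (33.2% and 30.1% of all genes), and 1 was higher and 7 lower at 0.25 nM (30.3% and 33.9%). Without the shift 4 were higher and 6 lower at 0.5 nM (45% and 20.1% of all genes), and 8 were higher and 5 lower at 0.25 nM (50.7% and 17.1%). The lowest change over both doses was that of SFXN1, a mitochondrial serine transporter, at -0.51 ± 0.24 (SE; limma adjusted p = 0.713), and the highest that of its relative SFXN2 at 0.28 ± 0.16 (SE; limma adjusted p = 0.834). Of 8 measured partners and regulators none passed the group-level test, with OXSR1, a kinase that acts on cation-chloride cotransporters, at 0.31 ± 0.13 (SE; limma adjusted p = 0.620) and TXNIP, an arrestin-like protein that promotes removal of glucose transporters from the cell surface, at -0.21 ± 0.15 (SE; limma adjusted p = 0.909). At array level 2 of these 8 were higher and 2 lower at 0.5 nM, and 2 were higher and 3 lower at 0.25 nM. Without the shift 3 were higher and 0 lower at 0.5 nM, and 5 were higher and 1 lower at 0.25 nM. BSG, the chaperone of monocarboxylate transporters, read 11.98 in control, 11.86 at 0.5 nM and 11.90 at 0.25 nM. It passed as lower at both doses at array level after the shift (limma adjusted p = 0.00187 and 0.0117). The changes were -0.12 and -0.08, where as deposited the mimic groups stood 0.09 and 0.16 above control. At 0.25 nM the change of BSG was thus smaller than the shift, and its side there depended on the scaling.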

How the data were processed

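The 9 arrays are given as log2 intensities in 1 deposited table of 44629 rows, which the authors made with oligo, affy and RMA, per the submitters' processing notes. The version of each tool and the genome build were not given in the sources used here. The platform annotation named 15835 rows with 1 symbol and 0 with several, all 15835 IDs matched the reference gene table, and the brightest row per gene was kept, leaving 14812 genes. In 0.25 nM replicate 3 no value has 0 as its first decimal, so values of fewer than 10 digits there were left out (19.1% of genes, and SLC33A2, SLC66A2 and SLC68A1). This cut also takes out intact values. In SLC33A2 and SLC68A1 the value left out equalled those of replicates 1 and 2 as deposited. Each array was then shifted to one median; as deposited the mimic groups stood 0.09 (0.5 nM) and 0.16 (0.25 nM) above control over genes with no missing value. The number of arrays limits the precision.

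Tests were two-sided with limma 3.58.1 in R 4.3.3: at group level on the 3 group means with an intensity trend (35.9 prior degrees of freedom, so most of the error is borrowed from other genes), and at array level with 1 mean per group. The code was tested on simulated data. Replicate numbers were checked as pairs. Deviations of same-numbered arrays correlated at 0.143 to 0.585, and those of differently numbered arrays at -0.485 to 0.359. These ranges overlap, and 5 of 9 arrays correlated best with their own number, so the pairing is uncertain. The fit with the replicate block is given where it changes a call.

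The rule left out 5 SLC symbols, of which 0 name a row here. The rule for named genes listed those past the group-level test, those whose mimic arrays lie on one side of control, those with doses on opposite sides and those next to the limit of 7; with 17 members all are described. Members, lists (carriers with other symbols, partners and regulators, textbook carriers, and melanocytic, epithelial, fibroblast, leukocyte and endothelial markers) and tests were chosen with earlier results of these data known. Figures were drawn with matplotlib 3.10.9.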

Additional observations from a re-analysis of the deposited data

Results flagged for a closer look

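Between the doses, 11 of the 17 solute carriers differed at array level, near the 62.2% of all genes that did. In 4 of them every array of 0.5 nM lay above the control and every array of 0.25 nM below it. Doses on opposite sides in either order were found in 16.8% of all genes, and the share with this order alone was not counted. Without the shift 1 of the 4, SLC60A1, kept this position, and the other 3 lay above control at both doses. The difference between doses was 0.23 for SLC66A3 (limma adjusted p = 0.00203, and 0.00406 with the replicate block), 0.25 for SLC25A15 (limma adjusted p = 1.04e-07 and 6.12e-06), 0.25 for SLC49A3 (limma adjusted p = 1.32e-07 and 6.67e-06) and 0.26 for SLC60A1 (limma adjusted p = 1.31e-07 and 6.66e-06). All 4 tied on all control arrays, and these p-values rest on the spread within groups, of the gene and of other genes. SLC49A3 and SLC60A1 tied in every group as deposited, so their own spread was made by the shift alone.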

How the results depend on the processing

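Of 844 changes of single members recomputed under alternatives, 755 kept direction and side of the threshold, 29 lost their call, 17 gained one and 43 changed sign. None of the 43 belonged to SLC49A4, SLC33A2 or SLC60A2. The group-level count of 1 became 0 without the shift, 0 with quantile normalization, 0 without the intensity trend and 0 without replicate 1 of every group, and ran from 0 to 1 over single arrays left out (0 without 0.25 nM replicate 1 and without 0.25 nM replicate 3). Over all genes the same test called 19 and, across alternatives, 0 to 47. At an unadjusted p under 0.05, 1 to 2 members passed in each, and the share of all genes at that threshold was not counted. Without replicate 1 of every group the array-level count of 8 at 0.25 nM became 13 and that of 10 at 0.5 nM became 15, with 71.6% of all genes called at each dose. The members gained there had replicates 2 and 3 tied as deposited in 1 group or more. The median change of members at 7 or more was -0.05 and became 0.0593 without the shift; the cause of the other moves was not tested.

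Without the shift these changed sign. Over both doses SLC60A1 became 0.0543, SLC61A1 0.0286, SLC66A1 0.0984, SLC66A2 0.0028, SLC67A2 0.0046, SLC71A1 0.0492, SLC71A2 0.11 and SLC75A1 0.0694. At 0.5 nM SLC61A1 became 0.0075, SLC66A2 0.054 and SLC75A1 0.0388. At 0.25 nM SLC25A15 became 0.0806, SLC25A2 0.0632, SLC49A3 0.0826, SLC61A1 0.0496, SLC66A3 0.0637, SLC67A2 0.014, SLC71A1 0.14, SLC71A2 0.11 and SLC75A1 0.10. With quantile normalization SLC66A1 became 0.0028 and SLC71A2 0.0179 over both doses, and at 0.25 nM SLC71A1 became 0.0134 and SLC71A2 0.0029. Without replicate 1 of every group SLC66A3 became -0.0084 and SLC68A1 -0.0586 over both doses. With single arrays left out, ranges that crossed 0 were, over both doses, -0.22 to 0.0014 for SLC61A1, -0.19 to 0.0582 for SLC66A1, -0.0056 to 0.0344 for SLC66A3, -0.0642 to 0.10 for SLC68A1 and -0.0621 to 0.0148 for SLC71A2. At 0.5 nM they were -0.0237 to 0.15 for SLC38A12, -0.21 to 0.0138 for SLC61A1 and -0.0258 to 0.0714 for SLC71A2, and at 0.25 nM -0.11 to 0.17 for SLC66A1 and -0.10 to 0.0070 for SLC71A2.

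The replicate block changed no other call of a member than those given for SLC68A1 and SLC71A2; counts with it were 9 at 0.5 nM, 9 at 0.25 nM and 12 between doses. It cannot be formed for the group-level test, which has 1 value per group. Most members change by less than the SE of that test, and 3 arrays per group with tied values limit what smaller changes can show.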

Other observations

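A further 5 coding genes have an SLC symbol outside the rule, a list made after the table was seen. SLC35D4 lay above control by 0.26 at 0.5 nM and 0.34 at 0.25 nM, from a control mean of 7.81. SLC51A, a subunit of the bile acid and steroid exporter, lay above control by 0.46 and 0.35 from a dim level of 4.83, and its partner subunit SLC51B by 0.31 at 0.5 nM and at -0.06 at 0.25 nM from 5.77. SLC9D1 and SLC35F6, at 8.83 and 9.33 in control, lay within 0.13 of it. None passed the group-level test (limma adjusted p = 0.801 for SLC35D4, 0.911 for SLC51A, 0.983 for SLC51B, 0.979 for SLC9D1 and 0.996 for SLC35F6).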
